A study of Homo sapiens with 4 samples.

Results

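The genes of NF-κB signaling were measured in HCT116, a human cell line derived from a colorectal carcinoma, after treatment with the piperine derivative HJ-4. They were the transcription factor subunits, genes grouped as inhibitors, upstream adaptors and kinases, cytokines and other target genes. The 36 genes were chosen by symbol, by their role in the pathway, out of 20263 genes in the count table. Earlier results of these data were known when they were chosen. RNA was sequenced from 2 libraries of cells given 32 µM HJ-4 for 24 h and from 2 libraries of cells given the vehicle, DMSO at 0.1%, for 24 h. All 4 libraries came from the same line, labelled WT, and the amount of DMSO in the HJ-4 cultures is not given in the labels. The dose is that of the labels and methods, and a figure legend of the study gives a lower one. The methods describe biological triplicates. The 2 libraries per condition analysed here carry no label that ties them to separate cultures, so if they were not separate the p-values rest on technical spread.

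NF-κB is a family of dimeric transcription factors built from REL-type proteins. In resting cells, inhibitor proteins of the IκB family keep most dimers in the cytoplasm. In the canonical arm, receptors for TNF, interleukin 1 or bacterial products recruit TRAF and RIPK proteins and ubiquitin ligases, the IKK kinase complex marks IκB for degradation, and RELA and REL dimers enter the nucleus. In the noncanonical arm, the kinase NIK, encoded by MAP3K14, drives the processing of the NFKB2 protein and frees RELB dimers, and TRAF2, TRAF3 and the cIAP ligases keep NIK low. Many targets of the pathway are its own inhibitors, such as NFKBIA and TNFAIP3, which close a negative feedback loop. In the colon epithelium, and in carcinoma derived from it, the pathway is known for inflammatory and survival gene expression.

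Of the 36 genes, 35 were matched to a gene of the table. SOD2 was not matched under its GENCODE v44 identifier and has no value here. The filter on low counts left 31 for testing, and IL1B, IL6, TNF and BCL2A1 did not pass it. Libraries held 34359889 and 33762230 counts with HJ-4 and 31120459 and 29769568 counts with DMSO, and mitochondrially encoded genes took 6.01% and 6.41% of counts with HJ-4 and 6.59% and 7.73% with DMSO. Of 8 epithelial markers, 7 passed the filter, with KRT8 at 1702 to 1903 CPM, and the colon factor CDX1 had 0 counts in every library. Their summed level was 4491 and 4679 CPM with HJ-4 and 4786 and 4244 CPM with DMSO, but CLDN7 and CDH1 were higher in both HJ-4 libraries (log2 fold changes 0.59 and 0.41, edgeR adjusted p-values 0.16 and 0.20, DESeq2 0.00079 and 0.029) and ELF3 was lower (-0.36, 0.24 and 0.081). The part of these markers in the NF-κB values was not tested. Levels are CPM after TMM scaling (counts scaled to library size), log2 fold changes are HJ-4 over DMSO, and adjusted p-values come from edgeR's quasi-likelihood test over 14044 genes. As the RNA is from bulk cultures, fewer cells that express a gene and less RNA per cell cannot be told apart.

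The NF-κB consensus, a motif of 10 bases, was searched for on both strands of RefSeq promoter windows of 300 bases (GRCh38.p14, 250 bases before the start and 50 from the start on). RELB, NFKBIE, RIPK2, IL18, LIF, CSF1 and IER3 had no window, and 29 genes had 1 or more. At least 1 match stood in a window of 15 of the 29 genes (51.7%), against 7.09% of the 27305 genes with a window. By window, 21 of 48 (43.8%) held a match, against 5.91% of all 35116 windows. A match is a run of letters and not a measured binding site. The list holds known targets of the pathway, so its higher share may follow from how the genes were chosen and is no result of HJ-4 treatment. The windows of NFKBIA, TNFAIP3, BCL3, NFKB1 and TNIP1 follow in lower case with the matches in capitals. They set inhibitors whose RNA was higher in both HJ-4 libraries beside NFKB1, also higher but by less, and TNIP1, whose conditions overlapped. Each window shown holds a match, so the display cannot tell whether a match goes with a higher level.
NFKBIA, chr14:35404700-35404999, minus strand: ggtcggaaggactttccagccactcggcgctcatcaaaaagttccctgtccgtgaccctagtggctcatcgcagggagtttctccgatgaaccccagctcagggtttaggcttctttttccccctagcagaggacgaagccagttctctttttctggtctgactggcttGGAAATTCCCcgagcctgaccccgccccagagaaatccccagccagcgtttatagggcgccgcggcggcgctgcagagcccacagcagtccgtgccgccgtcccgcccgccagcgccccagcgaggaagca
TNFAIP3, chr6:137867009-137867308, plus strand: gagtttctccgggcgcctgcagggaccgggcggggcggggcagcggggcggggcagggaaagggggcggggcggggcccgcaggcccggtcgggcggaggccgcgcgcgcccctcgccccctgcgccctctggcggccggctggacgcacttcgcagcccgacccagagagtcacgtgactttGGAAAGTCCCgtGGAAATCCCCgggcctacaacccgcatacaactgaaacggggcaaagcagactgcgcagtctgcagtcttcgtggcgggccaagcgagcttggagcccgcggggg
BCL3, chr19:44748458-44748757, plus strand: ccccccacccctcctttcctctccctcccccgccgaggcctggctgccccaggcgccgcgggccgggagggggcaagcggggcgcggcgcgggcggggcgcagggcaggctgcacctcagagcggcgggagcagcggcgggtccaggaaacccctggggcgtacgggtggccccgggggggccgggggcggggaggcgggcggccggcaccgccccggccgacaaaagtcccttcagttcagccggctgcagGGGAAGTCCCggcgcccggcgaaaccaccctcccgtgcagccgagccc
NFKB1, chr4:102501109-102501408, plus strand: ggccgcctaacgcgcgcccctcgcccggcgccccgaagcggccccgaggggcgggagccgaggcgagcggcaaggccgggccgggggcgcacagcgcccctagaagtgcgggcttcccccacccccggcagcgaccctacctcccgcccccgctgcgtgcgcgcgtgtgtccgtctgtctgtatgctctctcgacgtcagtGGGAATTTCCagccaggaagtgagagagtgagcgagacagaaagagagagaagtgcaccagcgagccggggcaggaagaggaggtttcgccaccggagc
TNIP1, chr5:151080985-151081284, minus strand: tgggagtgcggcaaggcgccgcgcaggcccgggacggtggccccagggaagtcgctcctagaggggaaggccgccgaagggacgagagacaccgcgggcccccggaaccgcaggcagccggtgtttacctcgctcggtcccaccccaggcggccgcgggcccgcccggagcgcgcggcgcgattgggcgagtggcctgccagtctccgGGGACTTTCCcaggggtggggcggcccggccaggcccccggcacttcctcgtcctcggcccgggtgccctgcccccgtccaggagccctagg
Counted in bases from the start, with negative values before it, the match of NFKBIA began at -81 and a pair of matches of TNFAIP3 at -67 and -55. The match of NFKB1 began at -49, that of TNIP1 at -42 and that of BCL3 at 2. NFKB1 and TNIP1 each have 2 windows, of which 1 held a match. The window shown for TNIP1 lies inside the gene, which reaches to 151093577 in GENCODE v44.

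**Figure D1:**
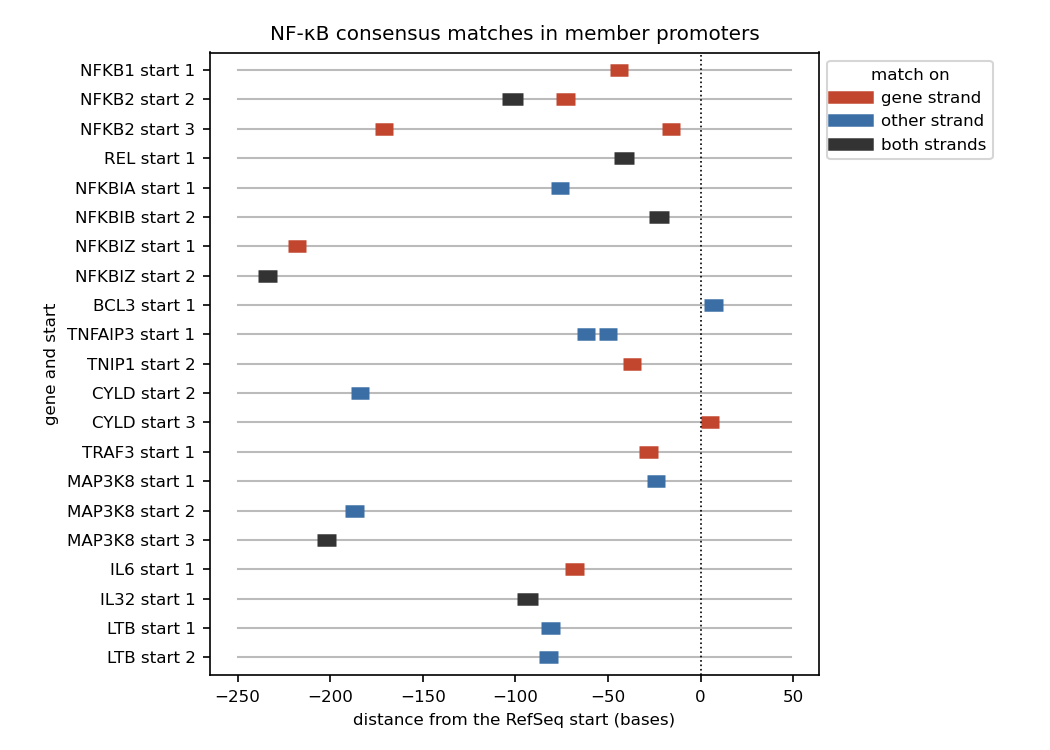
Position of each NF-κB consensus match (coloured blocks, by strand) in the promoter windows that held one, with distance from the RefSeq start in bases on the horizontal axis and each gene and start on the vertical axis. Matches of NFKB1, REL, NFKBIA, TNFAIP3, TNIP1 and IL6 lie between -81 and -33, and REL holds its match on both strands.

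Most of the genes tested were higher in HJ-4-treated HCT116 cells, all but CSF2 by less than 2-fold, and none passed the adjusted threshold. Of the 31 tested, 27 lay above and 4 below a log2 fold change of 0, and their median was 0.34, while the median of all 14044 genes was 0.00. By edgeR, 0 passed an adjusted p of 0.05 in either direction (background 0.0427% of all genes higher and 0.00712% lower). Before adjustment, 12 had p under 0.05 and a higher level with HJ-4 and 1 a lower level, against a background of 7.93% of all genes in each direction. DESeq2 called 6 higher (RELB, NFKBIA, TNFAIP3, IL18, LIF and IER3) and 0 lower, against 2.58% and 1.95% of the 12682 genes it adjusted, and limma-voom called 0. Without overlap between the conditions, 19 of the 31 were higher and 2 lower with HJ-4, against 25.2% and 25.6% of all genes. With total counts in place of TMM scaling, 923 of all genes were higher with p under 0.05 before adjustment and 1388 were lower, against 1114 and 1114 with TMM, and the count for the group stayed at 12 and 1. Without HJ-4 replicate 2 the 12 became 7 (of 541 over all genes, against 1114 with all libraries), and the 1 lower, MAP3K14, was lost when either HJ-4 library or DMSO replicate 1 was left out.

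**Figure D2:**
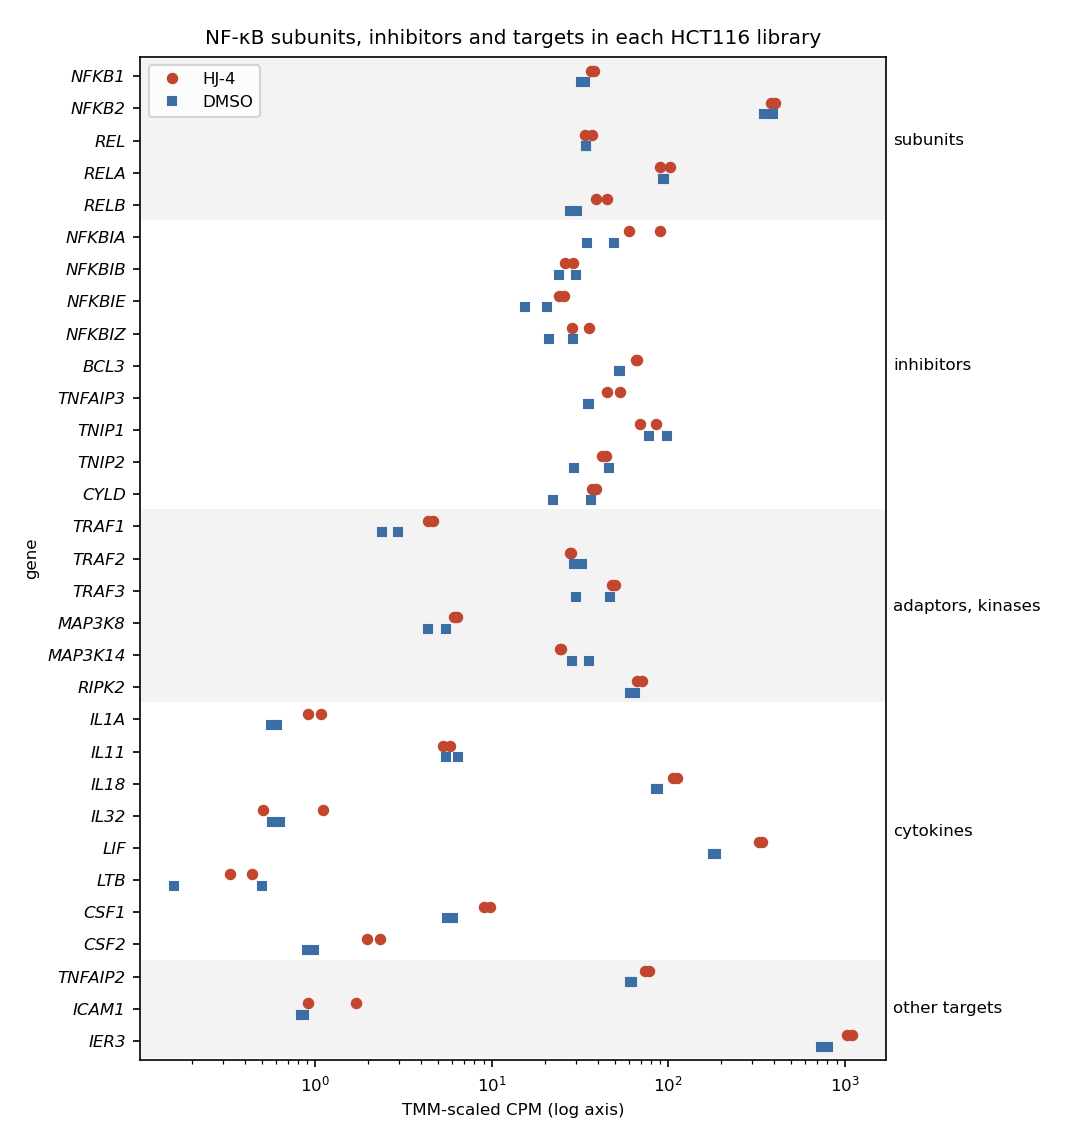
TMM-scaled CPM (log axis) of the 31 tested genes in each library, grouped by role, with HJ-4 libraries as circles above and DMSO libraries as squares below. IER3 lies near the right edge at 1027 and 1098 CPM with HJ-4 and 810.2 and 731 CPM with DMSO, and LIF is the cytokine gene furthest to the right.

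Among the 5 subunits, RELB alone had an unadjusted p under 0.05, and the others differed little. Of all genes, 7.93% were higher with HJ-4 at that p. RELB, the partner of the processed NFKB2 protein in the noncanonical arm, was at 39.2 and 44.8 CPM with HJ-4 and at 30.5 and 27.9 CPM with DMSO. The conditions did not overlap, with a log2 fold change of 0.53 (SE 0.12, edgeR adjusted p = 0.19, and 0.019 from DESeq2), which ranged from 0.41 to 0.63 when each library was left out. NFKB1, which encodes the precursor of p50, was at 36.7 and 37.8 CPM with HJ-4 and at 32.2 and 33.9 CPM with DMSO. These levels did not overlap either, by a smaller margin (log2 fold change 0.17, SE 0.09, edgeR adjusted p = 0.43). NFKB2, which encodes the precursor of p52, was at 384 and 402 CPM with HJ-4 and at 391 and 351 CPM with DMSO. RELA, which encodes p65, the main activating subunit of the canonical arm, was at 89.5 and 103 CPM with HJ-4 and at 93.6 and 94.3 CPM with DMSO. REL, which encodes c-Rel, was at 37.0 and 33.8 CPM with HJ-4 and at 34.3 and 34.1 CPM with DMSO. For NFKB2, RELA and REL the libraries of the conditions overlapped, and the log2 fold changes were 0.08, 0.03 and 0.05, of which those of RELA and REL changed sign when 1 HJ-4 library was left out. That of NFKB2 ranged from 0.0054 with DMSO replicate 2 left out to 0.16 with DMSO replicate 1 left out, and leaving out an HJ-4 library gave 0.13 (replicate 1) or 0.04 (replicate 2).

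Per kilobase of the canonical transcript, NFKB2 stood highest of the subunits in these cells and REL lowest. The level of NFKB2 was 127 and 133 CPM per kilobase with HJ-4 and 129.7 and 116 CPM per kilobase with DMSO. RELA followed at 35.6 and 40.9 CPM per kilobase with HJ-4 and 37.2 and 37.5 CPM per kilobase with DMSO. RELB, at 17.4 and 19.8 CPM per kilobase with HJ-4 and 13.5 and 12.3 CPM per kilobase with DMSO, and NFKB1, at 9.05 and 9.33 CPM per kilobase with HJ-4 and 7.94 and 8.36 CPM per kilobase with DMSO, lay below it. REL was at 3.33 and 3.04 CPM per kilobase with HJ-4 and 3.09 and 3.07 CPM per kilobase with DMSO. No neighbours in this order overlapped within either condition. The order depends on the transcript taken as canonical, and REL has the longest of the 5, at 11108 bases.

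Of the 9 genes grouped as inhibitors, 8 had positive log2 fold changes (median 0.36), as did 7121 of all 14044 genes. With an unadjusted p under 0.05, 4 were higher (7.93% of all genes): NFKBIA, NFKBIE, BCL3 and TNFAIP3. BCL3 and NFKBIZ encode nuclear IκB proteins, and whether these act as inhibitors here was not tested. NFKBIA encodes IκBα, the inhibitor that NF-κB resynthesises after activation. It was at 60.0 and 90.0 CPM with HJ-4 and at 34.6 and 49.3 CPM with DMSO. The conditions did not overlap, although the libraries within a condition also differed by 1.5 times with HJ-4 and 1.43 times with DMSO. The log2 fold change was 0.84 (SE 0.26, edgeR adjusted p = 0.25, and 0.047 from DESeq2) and became 0.50 once HJ-4 replicate 2 was left out and 1.12 once DMSO replicate 2 was. NFKBIA lies on chromosome 14 of GRCh38 from 35401079 to 35404749 in GENCODE v44, with the promoter match shown above.

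TNFAIP3 encodes A20, a ubiquitin-editing enzyme that shuts off signaling from TNF and Toll-like receptors. It was at 44.9 and 53.1 CPM with HJ-4 and at 35.9 and 35.1 CPM with DMSO. The conditions were separate (log2 fold change 0.46, SE 0.12, edgeR adjusted p = 0.21, and 0.049 from DESeq2). BCL3, a nuclear IκB protein that binds p50 and p52 dimers, was at 65.8 and 66.6 CPM with HJ-4 and at 53.6 and 52.5 CPM with DMSO. The libraries of each condition lay close together, and the log2 fold change was 0.32 (SE 0.08, edgeR adjusted p = 0.22, and 0.065 from DESeq2). NFKBIE, which encodes IκBε, was at 25.6 and 24.2 CPM with HJ-4 and at 20.5 and 15.5 CPM with DMSO. Its log2 fold change was 0.47 (SE 0.16, edgeR adjusted p = 0.28), and 0.28 without DMSO replicate 2.

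The other inhibitors had wider spread or smaller differences. NFKBIB, which encodes IκBβ, was at 26.0 and 29.0 CPM with HJ-4 and at 30.03 and 23.99 CPM with DMSO, with complete overlap and a log2 fold change of 0.03 that turned negative with total counts (-0.0036), once DMSO replicate 2 was left out (-0.13) and once HJ-4 replicate 2 was (-0.07). NFKBIZ, which encodes the nuclear protein IκBζ, was at 35.7 and 28.7 CPM with HJ-4 and at 28.9 and 21.2 CPM with DMSO. NFKBIZ overlaps NXPE3 on the same strand, and NFKBIB overlaps SIRT2 on the opposite strand. The lower HJ-4 library of NFKBIZ lay just under the higher DMSO library, and the log2 fold change was 0.36 (standard error 0.20), which ranged from 0.15 with DMSO replicate 2 left out to 0.61 with DMSO replicate 1 left out and was 0.21 when HJ-4 replicate 1 was dropped. CYLD, a deubiquitinase that removes the chains on which IKK is activated, was at 39.0 and 37.0 CPM with HJ-4 and at 36.8 and 22.2 CPM with DMSO. One DMSO library almost touched the HJ-4 libraries, and the log2 fold change of CYLD ranged from 0.05 to 0.78 when each library was left out. TNIP2, an A20-binding inhibitor, was at 44.6 and 42.3 CPM with HJ-4 and at 29.4 and 46.0 CPM with DMSO. TNIP1, another A20-binding inhibitor, was at 69.4 and 85.7 CPM with HJ-4 and at 98.9 and 78.1 CPM with DMSO, and it was the 1 inhibitor with a negative log2 fold change (-0.19, standard error 0.16). For TNIP1, leaving out a DMSO library gave -0.01 (replicate 1) or -0.35 (replicate 2), and leaving out an HJ-4 library gave -0.03 (replicate 1) or -0.36 (replicate 2). TNIP1 and TNIP2 overlapped between the conditions. TNIP1 has a promoter match in 1 of its 2 windows, while NFKBIA and TNFAIP3 each have 1 window, with a match.

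**Figure D3:**
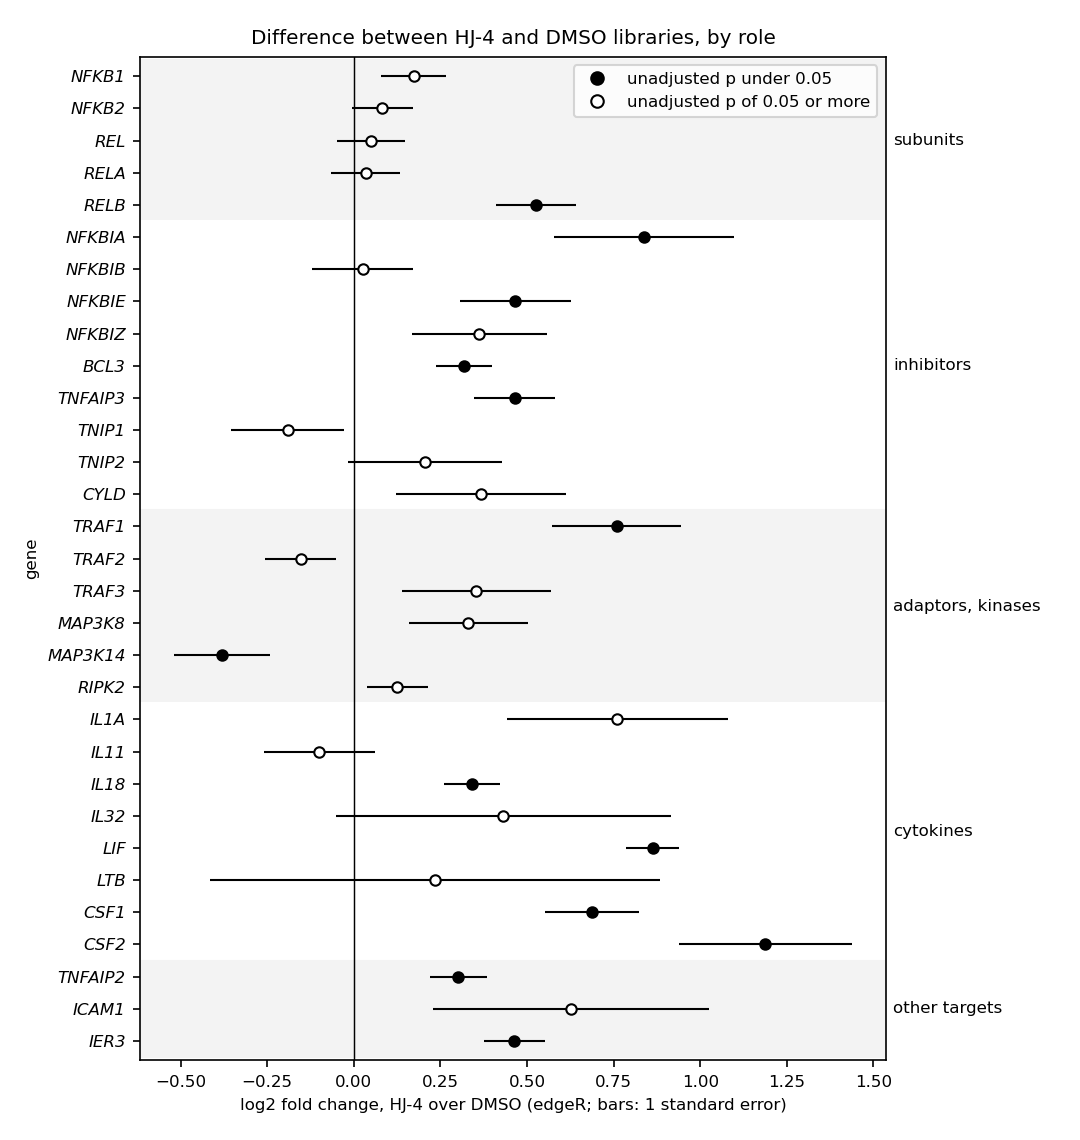
Log2 fold change (HJ-4 over DMSO, edgeR) with 1 standard error of each tested gene, grouped by role, filled where the unadjusted p was under 0.05. The point furthest right is CSF2 at 1.19, the point furthest left is MAP3K14 at -0.38, and 4 of 5 subunits lie near 0.

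Of the 6 adaptors and kinases, 4 were higher and 2 lower in both HJ-4 libraries, against 25.2% and 25.6% of all genes. Before adjustment TRAF1 and MAP3K14 had p under 0.05 (7.93% of all genes in each direction). MAP3K14, which encodes NIK, was at 24.4 and 24.8 CPM with HJ-4 and at 35.7 and 28.4 CPM with DMSO. Both HJ-4 libraries lay below both DMSO libraries, with a log2 fold change of -0.38 (SE 0.14, edgeR adjusted p = 0.30), which was -0.21 without DMSO replicate 1. MAP3K14 overlaps the antisense gene MAP3K14-AS1, and whether strand was used in counting is not stated. TRAF2, an adaptor that recruits the cIAP ligases, was at 27.8 and 28.1 CPM with HJ-4 and at 32.7 and 29.4 CPM with DMSO. It was also lower in both HJ-4 libraries, by little (log2 fold change -0.15, standard error 0.10), which was -0.08 without DMSO replicate 1. TRAF3, which delivers NIK for degradation, was at 48.3 and 49.9 CPM with HJ-4 and at 30.2 and 46.6 CPM with DMSO. The HJ-4 libraries were above both DMSO libraries, but the log2 fold change of 0.35 was 0.07 without DMSO replicate 1 and 0.70 without DMSO replicate 2 (edgeR adjusted p = 0.086).

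TRAF1, an adaptor whose gene is an NF-κB target, was at 4.64 and 4.38 CPM with HJ-4 and at 2.93 and 2.39 CPM with DMSO. It had the highest log2 fold change of the 6 adaptors and kinases, 0.76 (SE 0.19, edgeR adjusted p = 0.21, and 0.20 from DESeq2), from 158 and 146 counts with HJ-4 and 92 and 72 counts with DMSO. MAP3K8, which encodes the kinase TPL2 that links the pathway to ERK, was at 6.34 and 6.11 CPM with HJ-4 and at 5.51 and 4.39 CPM with DMSO. RIPK2, the kinase that carries signals of the NOD receptors for bacterial cell wall fragments, was at 70.9 and 66.3 CPM with HJ-4 and at 64.5 and 61.1 CPM with DMSO. Both were higher in each HJ-4 library, with log2 fold changes of 0.33 and 0.13 (edgeR adjusted p-values 0.41 and 0.52). That of MAP3K8 was 0.51 without DMSO replicate 1 and 0.18 without DMSO replicate 2.

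Of the 11 cytokine genes, LIF had the smallest p and CSF2 the largest log2 fold change. LIF, an interleukin 6 family cytokine that is also a p53 target, was at 325 and 339 CPM with HJ-4 and at 187 and 179 CPM with DMSO. The libraries of each condition were close and far from those of the other, with a log2 fold change of 0.86 (SE 0.08, edgeR adjusted p = 0.073, and 2.8e-17 from DESeq2). When each library was left out, the log2 fold change stayed between 0.82 and 0.90, and the adjusted p from edgeR went from 0.043 without DMSO replicate 1 to 0.36. LIF lies on chromosome 22 of GRCh38 from 30240453 to 30246759 and overlaps the antisense genes LIF-AS1 and LIF-AS2. IL11, of the same cytokine family, was at 5.81 and 5.34 CPM with HJ-4 and at 6.47 and 5.48 CPM with DMSO, with overlap and a log2 fold change of -0.10. IL6 had 0 counts in each library, which allows a level of up to 0.0881 to 0.0997 CPM (3 counts of a library, counting error only).

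The colony-stimulating factors were higher in both HJ-4 libraries. CSF2, which encodes GM-CSF, was at 1.97 and 2.34 CPM with HJ-4 and at 0.987 and 0.897 CPM with DMSO, from 67 and 78 counts with HJ-4 and 31 and 27 counts with DMSO. The conditions did not overlap, and the log2 fold change was 1.19 (SE 0.25, edgeR adjusted p = 0.17, and 0.16 from DESeq2), from 1.05 to 1.32 when each library was left out. CSF2 lies on chromosome 5 from 132073789 to 132076170. CSF1, the macrophage growth factor, was at 9.04 and 9.74 CPM with HJ-4 and at 5.61 and 6.05 CPM with DMSO. Its libraries were separate as well, with a log2 fold change of 0.69 (SE 0.14, edgeR adjusted p = 0.16, and 0.056 from DESeq2).

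Among the interleukin 1 family, IL18 was plentiful, IL1A was near 1 CPM and IL1B had 0 counts. IL18, which epithelial cells store as an inactive precursor, was at 112 and 107 CPM with HJ-4 and at 87.6 and 85.3 CPM with DMSO. The conditions were separate, with a log2 fold change of 0.34 (SE 0.08, edgeR adjusted p = 0.20, and 0.028 from DESeq2). IL1A, which encodes the alarmin interleukin 1α, was at 0.910 and 1.08 CPM with HJ-4 and at 0.605 and 0.565 CPM with DMSO, from 31 and 36 counts with HJ-4 and 19 and 17 counts with DMSO. These did not overlap, but the log2 fold change of 0.76 had a standard error of 0.32 (edgeR adjusted p = 0.33). IL1B had 0 counts in each library and the same upper limit as IL6.

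IL32, LTB and TNF were too scarce for a direction to be read. IL32, an inflammatory cytokine gene, was at 1.12 and 0.510 CPM with HJ-4 and at 0.573 and 0.631 CPM with DMSO. LTB, which encodes lymphotoxin β, had 15 and 11 counts with HJ-4 and 5 and 15 counts with DMSO. TNF, the classical inducer of the pathway and a target of it, had 0 and 4 counts with HJ-4 and 2 and 2 counts with DMSO. The conditions overlapped for all of these, and the log2 fold changes of IL32 and LTB changed sign when 1 library was left out. Of 9 leukocyte markers, 3 passed the filter on low counts, and the summed level of all 9 was 49.6 and 53.7 CPM with HJ-4 and 42.6 and 35.5 CPM with DMSO. Nearly all of it was CD68, and CD3E and MS4A1 had 0 counts in every library while PTPRC, which marks all leukocytes, had 0 and 2 counts with HJ-4 and 0 and 0 counts with DMSO. ITGAM was at 2.701 and 2.37 CPM with HJ-4 and at 1.37 and 0.897 CPM with DMSO, and its part in the cytokine values was not tested.

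The remaining targets were higher in both HJ-4 libraries where they could be measured, as were 25.2% of all genes tested. IER3, an early response gene that modulates cell survival, was at 1027 and 1098 CPM with HJ-4 and at 810.2 and 731 CPM with DMSO, the highest level of the group also per kilobase. The conditions were separate, with a log2 fold change of 0.46 (SE 0.09, edgeR adjusted p = 0.16, and 0.0013 from DESeq2), from 0.39 to 0.54 when each library was left out. IER3 lies on chromosome 6 from 30743199 to 30744548 and overlaps the antisense gene IER3-AS1. TNFAIP2, named for its induction by TNF, was at 74.0 and 78.1 CPM with HJ-4 and at 60.9 and 62.6 CPM with DMSO, with a log2 fold change of 0.30 (SE 0.08, edgeR adjusted p = 0.23, and 0.10 from DESeq2). ICAM1, the leukocyte adhesion receptor, was at 0.910 and 1.71 CPM with HJ-4 and at 0.828 and 0.864 CPM with DMSO. One HJ-4 library was near the DMSO libraries, and the log2 fold change of ICAM1 was 0.63 with all libraries, 0.09 when HJ-4 replicate 2 was left out and 1.02 when HJ-4 replicate 1 was. BCL2A1, an anti-apoptotic BCL2 family gene, had 4 and 6 counts with HJ-4 and 0 and 0 counts with DMSO. Set against a limit of 3 counts over the DMSO libraries, the 10 counts with HJ-4 were 3.04-fold higher. Counting error in those 10 counts is left out, so this is no lower bound, and BCL2A1 was not tested.

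**Figure D4:**
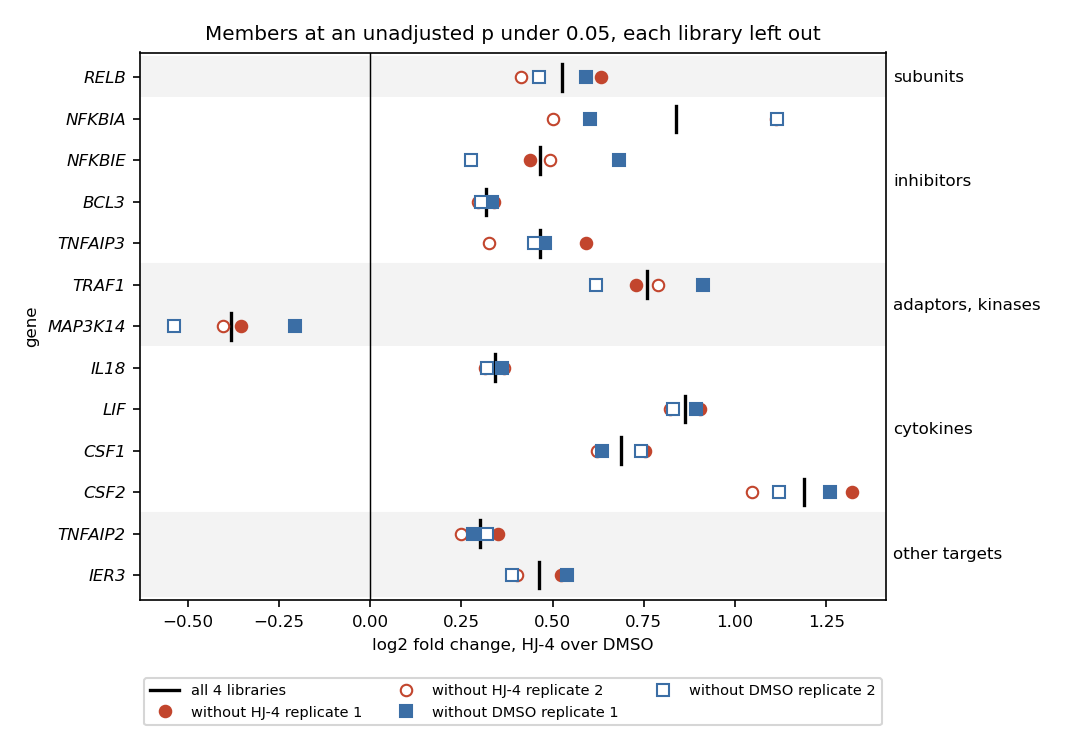
Log2 fold change (HJ-4 over DMSO) of the 13 genes with an unadjusted p under 0.05, with all 4 libraries (vertical bars) and with each library left out (symbols). LIF stays between 0.82 and 0.90 and BCL3 between 0.30 and 0.34, while NFKBIA runs from 0.50 to 1.12. The conditions of all 13 genes did not overlap, so leaving out 1 library could hardly bring a gene across 0.

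The log2 fold changes of genes with and without a promoter match spread over overlapping ranges, from -0.19 to 0.84 with a match and from -0.38 to 1.19 without. Of the tested genes with a promoter window, 14 had a match, with a median log2 fold change of 0.32, and 10 had none, with a median of 0.25. With p under 0.05 before adjustment, 3 with a match (NFKBIA, BCL3 and TNFAIP3) and 3 without (TRAF1, CSF2 and TNFAIP2) were higher, against 7.93% of all genes. RELB, NFKBIE, IL18, LIF, CSF1 and IER3 were also higher at that p but had no window, so they are outside this comparison. CSF2 at 1.19 had no match in its window, and NFKB2, with 4 matched places in its windows, had a log2 fold change of 0.08. These values are a description of windows of 300 bases, since sites further away were not searched.

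A further 85 genes of the pathway were listed by role. Of these, 76 were tested, 49 had a positive and 27 a negative log2 fold change, and the median was 0.08. By edgeR 0 passed an adjusted p of 0.05, and before adjustment 15 were higher with p under 0.05 and 3 lower, against 7.93% of all genes each way. DESeq2 called 10 higher and 0 lower, against 2.58% and 1.95% of all genes, and limma-voom called 0. Once HJ-4 replicate 2 was left out the 15 became 8, while over all genes 1114 became 541. Once DMSO replicate 1 was left out edgeR called 4 higher at an adjusted p of 0.05, of 59 over all genes, and the 3 became 6, of 1096 over all genes. The 3 became 5 once DMSO replicate 2 was left out and 1 once HJ-4 replicate 1 was, of 1279 and 466 over all genes. The median was 0.13 without DMSO replicate 2 and 0.05 with total counts. The median was -0.09 over 10 kinases and subunits of their complexes (3 positive, 7 negative) and 0.26 over 10 receptors (7 positive). It was 0.06 over 20 adaptors and ligases (12 positive), -0.03 over 12 further regulators (6 positive) and 0.29 over 24 further targets (21 positive). In the kinase list, IKBKG, TAB1, TAB2 and TAB3 are subunits and not kinases.

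Among the kinases and their subunits, CHUK, which encodes IKKα, was at 63.6 and 58.3 CPM with HJ-4 and at 68.3 and 67.4 CPM with DMSO. Its log2 fold change was -0.15. IKBKE was at 3.90 and 3.39 CPM with HJ-4 and at 4.04 and 4.09 CPM with DMSO, and TAB3, a subunit of the TAK1 complex, was at 47.7 and 46.2 CPM with HJ-4 and at 41.9 and 46.2 CPM with DMSO. All 10 genes of this list lay between -0.21 and 0.09 on the log2 scale. Among the receptors, LTBR, the lymphotoxin β receptor, was at 77.0 and 67.7 CPM with HJ-4 and at 49.7 and 51.0 CPM with DMSO (log2 fold change 0.52, edgeR adjusted p = 0.16, and 0.0038 from DESeq2). TNFRSF1A, the main TNF receptor, was at 159 and 169.8 CPM with HJ-4 and at 135 and 126 CPM with DMSO (log2 fold change 0.34, edgeR adjusted p = 0.22, and 0.042 from DESeq2). IL1R1 had a log2 fold change of -0.15, and TLR2 and TLR4 had 0 counts in each library.

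Of the adaptors and ligases, RBCK1, which encodes the HOIL-1 subunit of the linear ubiquitin ligase, was at 171 and 167 CPM with HJ-4 and at 103 and 97.1 CPM with DMSO. BIRC3, which encodes the NF-κB target cIAP2, was at 117 and 118 CPM with HJ-4 and at 74.8 and 80.3 CPM with DMSO. Both were separate between the conditions, with log2 fold changes of 0.75 and 0.60 (edgeR adjusted p-values 0.079 and 0.11, DESeq2 3.1e-11 and 3.2e-06). RIPK1, the kinase at the TNF receptor, was at 25.3 and 26.6 CPM with HJ-4 and at 30.8 and 35.6 CPM with DMSO, and MALT1, the paracaspase, was at 48.4 and 44.1 CPM with HJ-4 and at 55.5 and 57.3 CPM with DMSO. These were lower in both HJ-4 libraries, with log2 fold changes of -0.36 and -0.29 (edgeR adjusted p-values 0.26 and 0.27). Of the further regulators, NFKBID and USP21 had log2 fold changes of 0.35 and 0.20, and EP300 of -0.17.

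Of the 24 further targets tested, 10 were higher and 1 lower with p under 0.05 before adjustment, against 7.93% of all genes each way. PLAU, which encodes urokinase, was at 165 and 169.9 CPM with HJ-4 and at 98.2 and 88.3 CPM with DMSO (log2 fold change 0.85, edgeR adjusted p = 0.079, and 2.3e-11 from DESeq2). It was higher in each HJ-4 library. TNFAIP8 was the target with the smallest p among those lower with HJ-4, at 10.6 and 9.95 CPM with HJ-4 and at 15.1 and 13.5 CPM with DMSO (log2 fold change -0.48, edgeR adjusted p = 0.22). Several of these targets also answer to p53 or to AP-1 and are no specific readout of NF-κB.

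**Figure D5:**
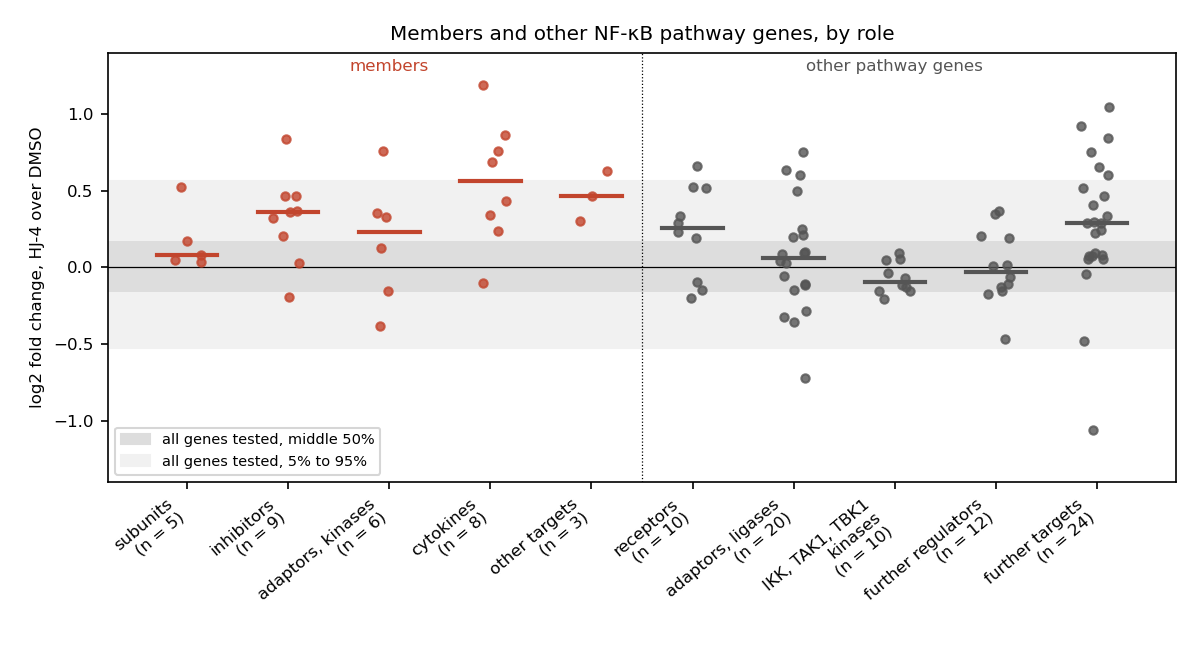
Log2 fold change (HJ-4 over DMSO) of each tested gene by role (points) with the median of the role (horizontal lines), for the gene group on the left and the other pathway genes on the right. The shaded bands hold the middle 50% (-0.17 to 0.18) and the 5% to 95% range (-0.52 to 0.56) of all 14044 genes. The cytokine median of 0.56 and the median of -0.09 of the kinases and their subunits are the furthest apart. The cytokine median is over 8 genes, of which IL1A, IL32, LTB and CSF2 lay under 5 CPM, so its size is uncertain.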

How the data were processed

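RNA was measured in 2 HJ-4 and 2 DMSO libraries of HCT116 cells. The deposited values are raw read counts per Ensembl gene ID, not normalized by the authors. The methods name STAR on GRCh38 and featureCounts, while RSEM, HISAT2, bedtools, Trimmomatic and FastQC are listed in the submitters' processing notes. These differ on the aligner and counter, and no strand setting is stated in the sources used here. Therefore, reads of overlapping opposite-strand genes may not be told apart. Columns were matched by library name. Symbols came from GENCODE v44 on GRCh38 (20148 of 20263 IDs), and promoter windows from RefSeq.

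Genes kept by filterByExpr (14044) went through TMM scaling and edgeR 4.0.16's quasi-likelihood test (glmQLFit, glmQLFTest; R 4.3.3) on condition alone, adjusted by Benjamini-Hochberg. Standard errors were derived from the F statistic. The study names limma, and edgeR was used because the values are counts. The test was checked on simulated data with planted log2 fold changes of 1 and 2 in size. This does not show whether smaller differences, such as most genes of the group had, would be found. The fit was repeated without each library in turn, with the replicate number as a block, with size factors of DESeq2 1.42.0 or total counts as scaling, without a filter, with a stricter filter (mean of 5 CPM), and by DESeq2's Wald test and limma-voom (limma 3.58.1). DESeq2 was run on the genes kept by filterByExpr and gave no adjusted p for 4 of the 31 genes.

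No library was a copy of another: the chi-square per degree of freedom between them was 22.8 with HJ-4 and 37.9 with DMSO. The genes, lists and roles were chosen with earlier results of these data known. The naming rule gave values in each library for the subunits and for tested genes whose conditions did not overlap or whose unadjusted p was under 0.05; the other genes of the group are given in addition. Of the other pathway genes, up to 2 higher and 2 lower per role with the smallest p, separate conditions and a mean of at least 1 CPM are named. Some genes that this rule selects are not reported here.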

Additional observations from a re-analysis of the deposited data

How the results depend on the processing

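The median log2 fold change of the 31 genes was between 0.31 and 0.36 under the 11 alternatives. In each alternative that tested them, 24 of the 31 kept their sign. Of the 31, 19 were higher and 2 lower without overlap, so leaving out 1 library could hardly turn their sign. The stricter filter left out 6 genes (TRAF1, IL1A, IL32, LTB, CSF2 and ICAM1), so its median is over 25. The number higher at an adjusted p of 0.05 was 0 with all libraries in edgeR (6 over all genes) and 6 with DESeq2's Wald test (327 over all genes). The number at an unadjusted p under 0.05 was from 7 to 14 higher and from 0 to 1 lower when each library was left out. Of the other pathway genes, from 0 to 4 were higher at an adjusted p of 0.05 when each library was left out and 10 with DESeq2, from 8 to 22 were higher with p under 0.05 before adjustment and from 1 to 6 were lower, and their median was from 0.064 to 0.128, and 0.053 with total counts. Over all genes, the number higher with p under 0.05 before adjustment also rose when either DMSO library was left out. That number fell when either HJ-4 library was left out, as did the number lower. The shifts of these counts are therefore not particular to the group or to the other pathway genes. The cause of these shifts was not tested.

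The sign turned for 7 genes. When each library was left out, REL ran from -0.0042 (without HJ-4 replicate 1) to 0.099, RELA from -0.083 (without HJ-4 replicate 2) to 0.145, TNIP2 from -0.083 (without DMSO replicate 1) to 0.563, IL32 from -0.227 (without HJ-4 replicate 1) to 0.872 and LTB from -0.368 (without DMSO replicate 1) to 1.254. IL11 ran from -0.215 to 0.024 (without DMSO replicate 1). NFKBIB ran from -0.128 (without DMSO replicate 2) to 0.197, was -0.066 without HJ-4 replicate 2, and was -0.0036 when scaled by total counts. None of these genes had passed a threshold.

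Libraries share replicate numbers across conditions, and the labels do not say whether these mark pairs. Same-numbered libraries did not deviate together (correlation -0.04 across genes). With 2 libraries per condition this cannot exclude a pairing. With the replicate block, 0 of the 31 genes passed in either direction, before adjustment 13 were higher with p under 0.05 and 1 was lower, and the median was 0.34. In the other pathway genes the block gave 0 calls, with 15 higher and 3 lower and a median of 0.08. Over all genes the block gave 22 higher and 9 lower calls, against 6 and 1 without it. Before adjustment, the block gave 932 of all genes higher with p under 0.05 and 827 lower. At fewer than about 5 CPM, where 6 of the 31 genes lay, counting error limits what can be read.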

Other observations

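Libraries within a condition differed more for some genes of the group than for others. Over the 25 genes that averaged 5 CPM or more, the larger level was a median of 1.06 times the smaller between the HJ-4 libraries (1.009 to 1.5) and 1.11 times between the DMSO libraries (1.007 to 1.65). CYLD was higher in DMSO replicate 1, by 1.65 times, while TNIP2 and TRAF3 were higher in DMSO replicate 2, by 1.57 and 1.54 times. Between the HJ-4 libraries the same genes differed by 1.05, 1.06 and 1.03 times. The cause was not tested.

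In the other pathway genes, MYD88, the adaptor of Toll-like and interleukin 1 receptors, was at 7.66 and 16.8 CPM with HJ-4 and at 20.35 and 20 CPM with DMSO, and ATF3, a stress-induced transcription factor gene, was at 142 and 145 CPM with HJ-4 and at 94.5 and 44.1 CPM with DMSO. Their log2 fold changes were -0.72 and 1.05, with standard errors of 0.37 and 0.35. In each, 1 library stood well apart from the other library of its condition. They were chosen after their values were seen.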
